A study of Larimichthys crocea with 3 samples.

Results

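Single cells of samples labelled testis from Larimichthys crocea, the large yellow croaker, a marine fish that breeds by season, were profiled by droplet RNA sequencing, and the library labelled juvenile testis was compared with the library labelled adult regressed testis. The comparison took every deposited barcode with at least 500 UMIs and 300 detected genes, where a UMI (unique molecular identifier) marks 1 captured RNA molecule. This kept 22567 of the 37336 barcodes of the series that pass this filter, 4742 juvenile and 17825 adult regressed, and all 27368 features of the count tables were summed over them. The rest belong to the other library of the series, labelled adult differentiating testis, whose levels are quoted beside some results. Each group is 1 library, and the libraries have no treatment or genotype in their labels. Neither the age nor the number of fish is given in the sources used here. The protocol in the labels removed blood and the testis capsule before the tissue was digested to single cells. With 1 library a side, no test of stage is possible and library and stage cannot be told apart. All intervals are exact, at 95%, and reflect counting error alone.

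In a teleost testis, germ cells divide and enter meiosis inside cysts formed by Sertoli cells, while Leydig cells in the space between make androgens. After the breeding season the testis regresses and is left mainly with spermatogonia, the germ cells from which the next wave starts. An oocyte, the female germ cell, halts in the prophase of meiosis and stores RNA, histones and egg coat proteins for the embryo. These cell types therefore share many germ cell and meiosis genes and differ in egg coat and maternal RNA genes.

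The label of the juvenile library was checked against markers of testis and ovary. The lists used were chosen with earlier results of these data known, so the check is a description only. Oocyte genes were found in nearly every juvenile barcode. After each barcode was thinned to 1000 UMIs, 98.3% of the 4548 juvenile barcodes with that depth held at least 5 UMIs of the 22 oocyte genes found, against 0.0233% of 17163 adult regressed barcodes. The oocyte genes go against the label of testis. The name juvenile library below follows the label only, and what its cells are was not settled here. RNA set free from broken cells can add UMIs to every barcode of a droplet library. As a reference for it, barcodes with UMIs of at least 3 macrophage or lymphocyte genes were used, and there were 39 juvenile and 28 adult regressed ones. Of the juvenile ones, 92.3% held a UMI of the maternal RNA and chromatin genes and 74.4% one of the egg coat genes. Among all thinned juvenile barcodes 99.6% and 97.2% did. The median of maternal UMIs per 1000 was 5 in the reference and 12 in all juvenile barcodes. The part of free RNA in the 98.3% was not tested. Genes of the Sertoli list were in 10.0% of juvenile and 1.74% of adult regressed barcodes, beside 10.3% and 7.14% of the leukocyte-gene barcodes. Genes of the ovarian somatic list were in 3.47% and 1.03% of barcodes, beside 7.69% and 0% of the leukocyte-gene barcodes. With only 39 and 28 reference barcodes, the Sertoli and ovarian somatic shares cannot tell expression from background. They are therefore taken neither to bear out nor to contradict the labels. Whether the genes of the Sertoli list part testis from ovary cells was not tested. The median depth of the leukocyte-gene barcodes before thinning was 9852 and 2216 UMIs, against 3160.5 and 13120.0 in all thinned barcodes.

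Depth differed between the libraries. The juvenile sum held 24826985 UMIs with a median of 3118.5 UMIs and 1487 genes per barcode. The adult regressed sum held 293007561 UMIs with a median of 12788 UMIs and 3857 genes. At 1000 UMIs per barcode the medians were 659 and 681 genes. The deepest 5% of barcodes held 31.4% of juvenile and 21.1% of adult regressed UMIs, and 23 barcode sequences occurred in both libraries. Levels are given as CPM, the UMIs of a gene per 1000000 UMIs of the sum. In sums over all cells, fewer cells of a type and less RNA per cell cannot be told apart.

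The 2 libraries differed widely. Toward the juvenile library fewer genes passed 2-fold, but more passed 10-fold. Of 16203 genes with a mean of at least 1 CPM, 3467 (21.4%) were at least 2-fold higher in the juvenile library and 6000 (37.0%) at least 2-fold higher in the adult regressed library. The other 6736 genes lay within 2-fold. The median gene stood at a log2 ratio of juvenile over adult regressed of -0.51, which is the level against which lists are read. At 10-fold or more, 1103 genes (6.81%) were higher in the juvenile and 355 (2.19%) in the adult regressed library. At 100-fold the counts were 270 (1.67%) and 4 (0.0247%), and at 1000-fold they were 86 (0.531%) and 0. The 1103 genes took 24.0% of all juvenile UMIs and 0.369% of adult regressed UMIs. The 86 genes took 10.9% and 0.00258%. By contrast, the 355 genes took 1.60% of adult regressed and 0.119% of juvenile UMIs. A small set of very abundant RNAs in the juvenile library thus faced a broad set of smaller differences in the other direction. The counts at 2-fold depend on the scaling, and those under median-of-ratios scaling, given below, lie closer together. A gene near the 1 CPM minimum that 1 library lacks is compared only because the other has it, so the counts are descriptions and no support for a direction.

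**Figure D1:**
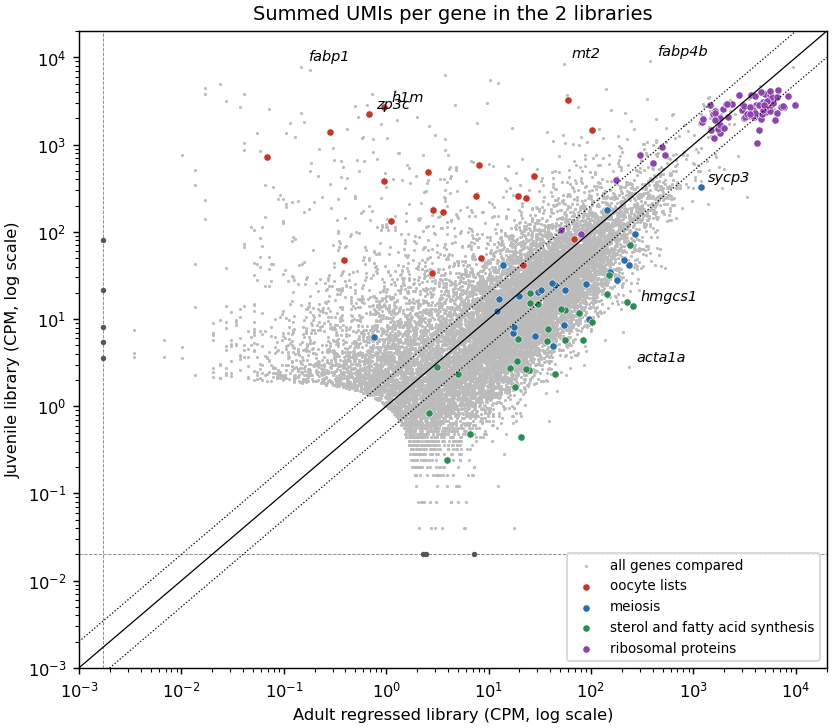
CPM of summed UMIs per gene in the adult regressed (x axis) and juvenile (y axis) library, both on log scales, with the line of equal level and dotted lines at 2-fold. Each point is 1 of 16203 genes, with genes of 4 groups in colour and genes without a UMI in a library drawn on the dashed line at its edge. The 86 genes past 1000-fold lie at the upper left, and 0 genes lie as far below the line.

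The genes of the egg coat showed the widest gap of the lists. The 3 egg coat genes found encode zona pellucida glycoproteins of the envelope around the fish egg, and 3 of 3 were at least 2-fold higher in the juvenile library, where 21.4% of all genes were. zp3c stood at 2245 CPM in the juvenile and 0.676 CPM in the adult regressed library, a ratio of 3322-fold (95% interval 2889.7 to 3839). zpcx stood at 1397 and 0.280 CPM, 4992-fold (4020.5 to 6278) apart. Together these zona genes took up UMIs in most juvenile barcodes, since zp3c was seen in 90.9% of thinned juvenile and 0.0408% of thinned adult regressed barcodes. Its share was 61.5% in the 39 leukocyte-gene barcodes, which is high but below the share in all juvenile barcodes. zpd differed less, with 255 and 19.2 CPM, and was also present in the adult differentiating library at 45.3 CPM.

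Maternal RNA and chromatin genes formed the most abundant oocyte list. It summed to 10827 CPM in the juvenile, 303 CPM in the adult regressed and 380.1 CPM in the adult differentiating library. Of 12 members, 11 were at least 2-fold higher in the juvenile library and 0 in the other direction, beside 21.4% and 37.0% of all genes. h1m, the linker histone of oocytes and early embryos in zebrafish, stood at 2678 and 0.962 CPM, a ratio of 2783-fold (95% interval 2476 to 3139.5). btg4, an adaptor that recruits the deadenylase to maternal mRNA in mouse oocytes, stood at 724 and 0.0683 CPM. Its ratio of 10609-fold (6867 to 17372) rests on 20 adult regressed UMIs. slbp2, the stem-loop binding protein for maternal histone mRNA in zebrafish, was at 379 against 0.949 CPM. Each of these RNAs was under 1 CPM in the adult regressed library.

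Other maternal genes had a clear level in both libraries. org, named in zebrafish for its link to oogenesis, was at 3290.3 and 59.3 CPM and was seen in 94.9% and 5.23% of thinned barcodes. zar1 and its relative zar1l encode RNA-binding proteins of oocytes, and zar1 was at 1483 and 101 CPM, 14.6-fold (14.4 to 14.8) apart, while zar1l was at 587 and 8.15 CPM. cpeb1, which controls the tail length of stored mRNA, was at 438 and 27.6 CPM. The kinase mos, which holds vertebrate eggs in meiotic arrest, was at 179.8 and 2.87 CPM, and wee2, the oocyte kinase that inhibits cyclin-dependent kinase, was at 258 and 7.57 CPM. Lipoprotein receptors that serve yolk uptake in fish oocytes were also higher, with lrp13 at 482 and 2.57 CPM and vldlr at 243 and 23.2 CPM. The member within 2-fold was pabpc1l, a poly(A)-binding protein of germ cells, at 83.2 and 68.5 CPM and 236 CPM in the adult differentiating library.

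Growth factors and transcription factors of the oocyte were lower in level and less even. Of 7 such genes found and 6 compared, 5 were at least 2-fold higher in the juvenile library, beside 21.4% of all genes. The secreted factors gdf9 and bmp15, which act on the cells around the oocyte, were at 47.6 and 134 CPM in the juvenile and 0.389 and 1.1 CPM in the adult regressed library. Their ratios were alike, 122-fold (101 to 149.6) and 121-fold (108 to 137). The forkhead factor foxr1 was at 169.6 and 3.55 CPM, and zglp1, which drives the oogenic fate in mouse, was at 34.0 and 2.82 CPM. nobox, a homeobox factor of oocytes, was at 50.3 and 8.47 CPM and differed by 5.93-fold (5.54 to 6.35). figla, the factor that switches on egg coat genes in mouse, was the exception at 41.7 and 21.8 CPM, 1.92-fold (1.79 to 2.05) apart. figla thus stood within 2-fold while zp3c and zpcx stood more than 1000-fold apart.

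Over the 3 oocyte lists, 19 of 21 compared genes were at least 2-fold higher in the juvenile library, beside 21.4% of all genes. Of the 21, 18 were at least 10-fold and 8 at least 100-fold higher, beside 6.81% and 1.67% of all genes. None of the 21 was 2-fold higher in the adult regressed library, where 37.0% of all genes were. The 22 genes found summed to 15203 CPM in the juvenile, 361.7 CPM in the adult regressed and 489.2 CPM in the adult differentiating library. The first of these sums exceeded the second 42.0-fold (41.7 to 42.3). A thinned juvenile barcode held a median of 17 such UMIs per 1000, and the 5th and 95th percentiles were 8 and 25. The adult regressed median was 0 with a 95th percentile of 2. The 2 distributions barely met. The juvenile one had its main peak near 17, and few barcodes lay near 0, with 11 at 0, 18 at 1 and 9 at 2 UMIs. Whether these few form a group of their own was not tested. The leukocyte-gene barcodes of the juvenile library held a median of 5 maternal UMIs per 1000, where all juvenile barcodes held 12. The part of free RNA in these levels was not tested.

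**Figure D2:**
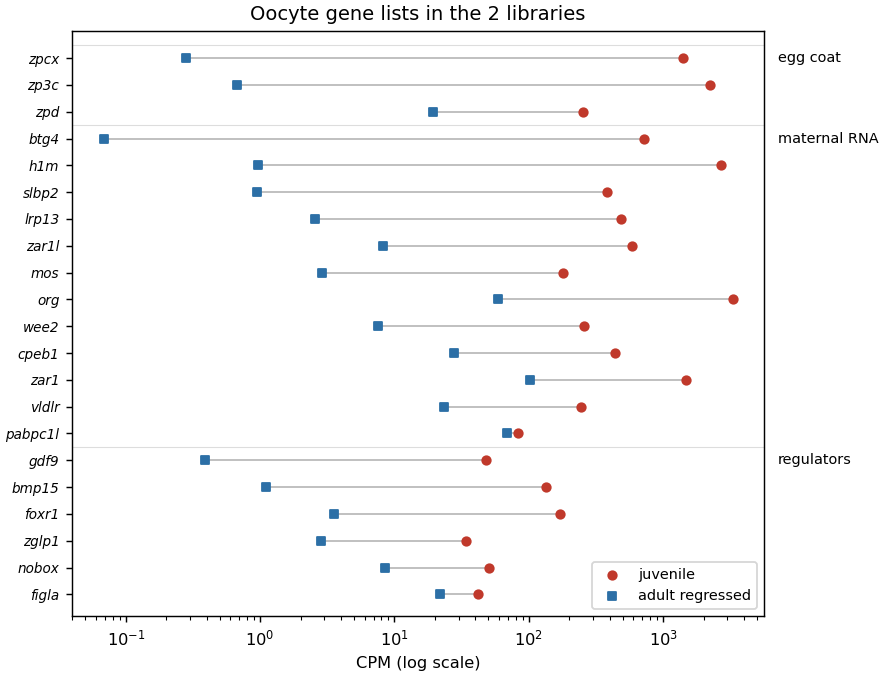
CPM of each compared oocyte gene on a log scale in the juvenile (circles) and adult regressed (squares) library, grouped by list, with a line joining the 2 values of a gene. figla and pabpc1l are the pairs that lie close together, and zpcx, zp3c, btg4 and h1m are the pairs more than 1000-fold apart.

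**Figure D3:**
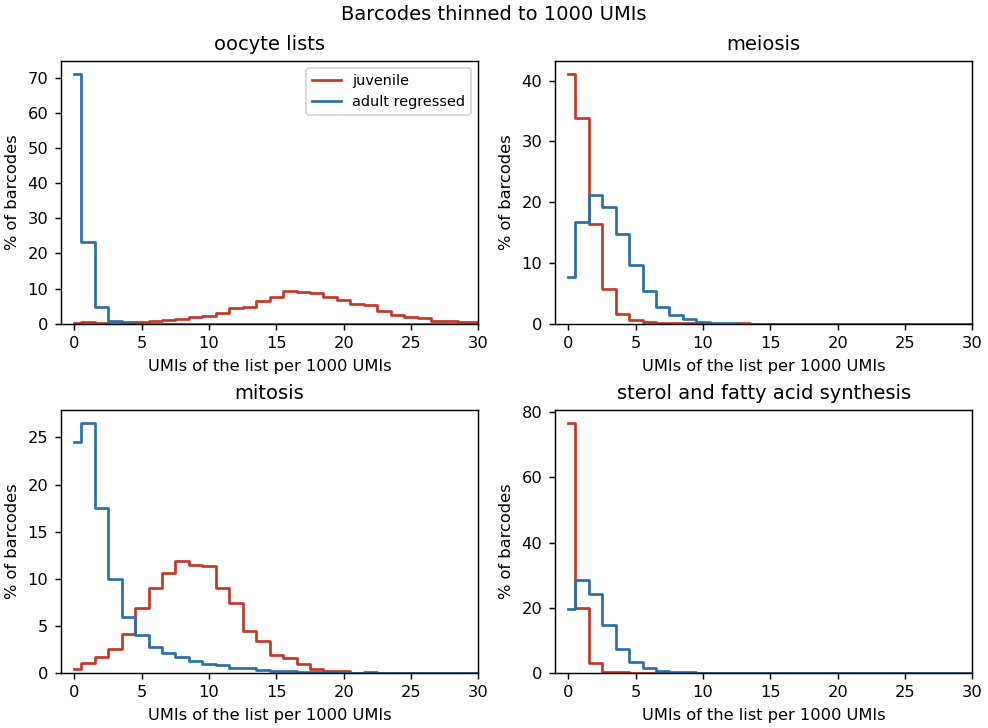
Share of barcodes (%, y axis) against the UMIs of 4 gene groups per 1000 UMIs of a thinned barcode (x axis, cropped at 30), for the juvenile and adult regressed library. Oocyte genes peak near 17 in the juvenile library and at 0 in the adult regressed one, while meiosis and sterol genes lie lower in the juvenile library.

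The genes with the largest ratios were mostly without a symbol. Of the 15 features ranked highest by the near end of their interval, 14 carry only a LOC number, and fabp1 was the other. The first of them, LOC104934109, had 109598 juvenile and 5 adult regressed UMIs. fabp1, the liver-type fatty acid binding protein, had 193714 UMIs in the juvenile and 43 in the adult regressed library, or 7803 and 0.147 CPM. That is a ratio of 53168-fold (95% interval 39470.0 to 73468), and fabp1 was seen in 99.2% of thinned juvenile barcodes against 0.0117%. It was also in 94.9% of the leukocyte-gene barcodes, close to its share in all juvenile barcodes. A second binding protein, fabp4b, was the most counted feature of the juvenile library at 9043 CPM, where the adult regressed library had 376 CPM. Other members of the family differed little, with fabp3 at 376 and 223 CPM. mt2, a metallothionein that binds zinc and copper, stood at 8449 and 54.9 CPM, and cox17, a copper chaperone of the respiratory chain, at 4302 and 139 CPM.

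Among features with a symbol, a ranking added after the values had been seen gave several genes with roles in egg cells. gtf3a, the factor for 5S ribosomal RNA that frog oocytes store in bulk, stood at 1499 and 0.416 CPM, 3600.1-fold (3014 to 4336) apart. eomesa, a T-box factor supplied by the mother in zebrafish, was at 105 and 0.0512 CPM. sybu, the syntabulin that marks the vegetal pole of zebrafish eggs, was at 238 and 0.0887 CPM. Further genes of this ranking have general functions, such as acp5, an acid phosphatase, at 2839.9 and 0.645 CPM and acsl5, an acyl-CoA synthetase, at 664 and 0.515 CPM. The gene named bncr had 1988 juvenile and 0 adult regressed UMIs and was at least 7821-fold higher, taking a floor of 3 UMIs in the adult regressed sum.

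Related copies of some genes differed unequally. gapdh, the glycolytic dehydrogenase, was at 884 CPM in the juvenile and 0.218 CPM in the adult regressed library. Its relative gapdhs, the sperm form in mammals, was at 99.7 and 422 CPM, higher in the adult regressed library by 4.23-fold (4.06 to 4.40). In the adult differentiating library gapdh was at 0.233 and gapdhs at 128 CPM. birc5b, a survivin of the chromosomal passenger complex, was at 417 and 0.416 CPM, whereas its copy birc5a was within 2-fold at 190.1 and 170.3 CPM. Reads of near-identical copies could be split or dropped by the counting, so values of single copies are uncertain.

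Cell cycle genes did not shift as 1 block. The mitosis list summed to 7282 CPM in the juvenile and 2434 CPM in the adult regressed library, 2.99-fold (2.98 to 3.01) apart. Of 26 members, 8 (30.8%) were at least 2-fold higher in the juvenile and 3 (11.5%) in the adult regressed library. Among all genes 21.4% and 37.0% were. The median log2 ratio of the list was 0.65 beside -0.51 for all genes. Much of the sum came from 2 cyclins and a regulator of their decay. ccnb1, cyclin B1, was at 1542 and 17.1 CPM, a ratio of 90.4-fold (95% interval 87.7 to 93.1). ccna2, cyclin A2, was at 1393 and 36.8 CPM, and cdc20, which activates the complex that degrades cyclins, was at 1067 and 90.7 CPM. The spindle genes tpx2, aurka and plk1 were 6.49-, 6.42- and 4.45-fold higher in the juvenile library. In the other direction stood cenpf, a kinetochore protein, at 24.8 and 124 CPM, and bub1b, a spindle checkpoint kinase, at 14.9 and 43.2 CPM. So did top2a, the topoisomerase of dividing cells, at 60.1 and 140.1 CPM. The top2a ratio of 0.429 fell under 2-fold, at 0.539 as a mean over barcodes and 0.512 without the deepest barcodes. The proliferation marker mki67 and the kinase cdk1, partner of the cyclins, were within 2-fold, with mki67 at 149 and 215 CPM and cdk1 at 188 and 242 CPM.

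The cyclin RNAs were spread over the juvenile barcodes and were not held by a few. ccnb1 was seen in 83.5% of thinned juvenile and 1.51% of thinned adult regressed barcodes, with 53.8% in the leukocyte-gene barcodes. At least 5 mitosis UMIs per 1000 were in 90.3% of juvenile and 15.5% of adult regressed barcodes. A UMI of the mitosis list was in 99.6% of all thinned juvenile and 94.9% of the juvenile leukocyte-gene barcodes. The part of free RNA in this spread was not tested. DNA replication genes showed no shift like that of mitosis genes, with sums of 3509.8 and 3552 CPM, whose order turned to a ratio of 1.14 as a mean over barcodes. Of 25 members of the replication list, 19 lay within 2-fold, beside 41.6% of all genes. Its 4 members higher in the juvenile library included the licensing factors cdc6 at 143 and 14.9 CPM and cdt1 at 88.3 and 13.2 CPM, and cdc45 of the replicative helicase at 106 and 20.4 CPM. The 2 members higher in the adult regressed library, mcm2 and mcm6, are core subunits of that same helicase, and mcm2 was at 69.2 and 174 CPM. The mcm6 ratio of 0.421 was 0.506 as a mean over barcodes, no longer past 2-fold. pcna, the sliding clamp, was at 679 and 845 CPM.

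Meiosis genes were lower in the juvenile library. Of 24 genes, 14 were at least 2-fold higher in the adult regressed and 2 in the juvenile library, beside 37.0% and 21.4% of all genes. The median log2 ratio of the meiosis list was -1.34 beside -0.51 for all genes, and its sums were 1030.2 and 2985 CPM. sycp3, a core protein of the axis of meiotic chromosomes, made up much of this at 324 CPM in the juvenile, 1189 CPM in the adult regressed and 2523 CPM in the adult differentiating library. It was seen in 22.9% of thinned juvenile and 64.2% of thinned adult regressed barcodes. Its partner sycp2 was at 28.2 and 179 CPM, hormad1, which monitors chromosome pairing, at 41.5 and 233 CPM, and sycp1, the bridge between paired axes, at 94.5 and 267 CPM. ythdc2, a regulator of meiotic entry, had the lowest ratio of the list at 9.99 and 96.3 CPM, higher in the adult regressed library by 9.64-fold (95% interval 8.50 to 11). The meiotic cohesin rec8 was at 4.87 and 42.3 CPM. These 6 genes were higher still in the adult differentiating library, where ythdc2 was at 157, rec8 at 104 and sycp2 at 655 CPM.

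Other meiosis genes lay within 2-fold. spo11, which makes the double-strand breaks, was at 21.7 and 32.5 CPM, and syce3, of the central element of paired chromosomes, was at 179 and 142 CPM. The 2 genes at least 2-fold higher in the juvenile library were ccna1, the germline cyclin A, at 6.20 and 0.758 CPM, and sycp2l, a relative of sycp2 that is known from mouse oocytes, at 41.9 and 13.9 CPM. In the adult differentiating library ccna1 was at 149.8 CPM and sycp2l at 3.05 CPM, so these members ranked the 3 libraries in different orders.

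Genes of the sperm tail and spermatid stood below the level of the adult differentiating library in both others. They summed to 449 CPM in the juvenile, 947 CPM in the adult regressed and 6479 CPM in the adult differentiating library. Of 34 found and 29 compared, 16 (55.2%) were at least 2-fold higher in the adult regressed and 1 (3.45%) in the juvenile library. Among all genes 37.0% and 21.4% were. meig1, needed for spermatid shaping in mouse, was at 26.9 and 138 CPM, the radial spoke gene rsph1 at 34.8 and 92.3 CPM, and the dynein arm gene dnai1 at 25.1 and 75.8 CPM. The tektin tekt1 was close to level at 55.1 and 46.1 CPM.

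**Figure D4:**
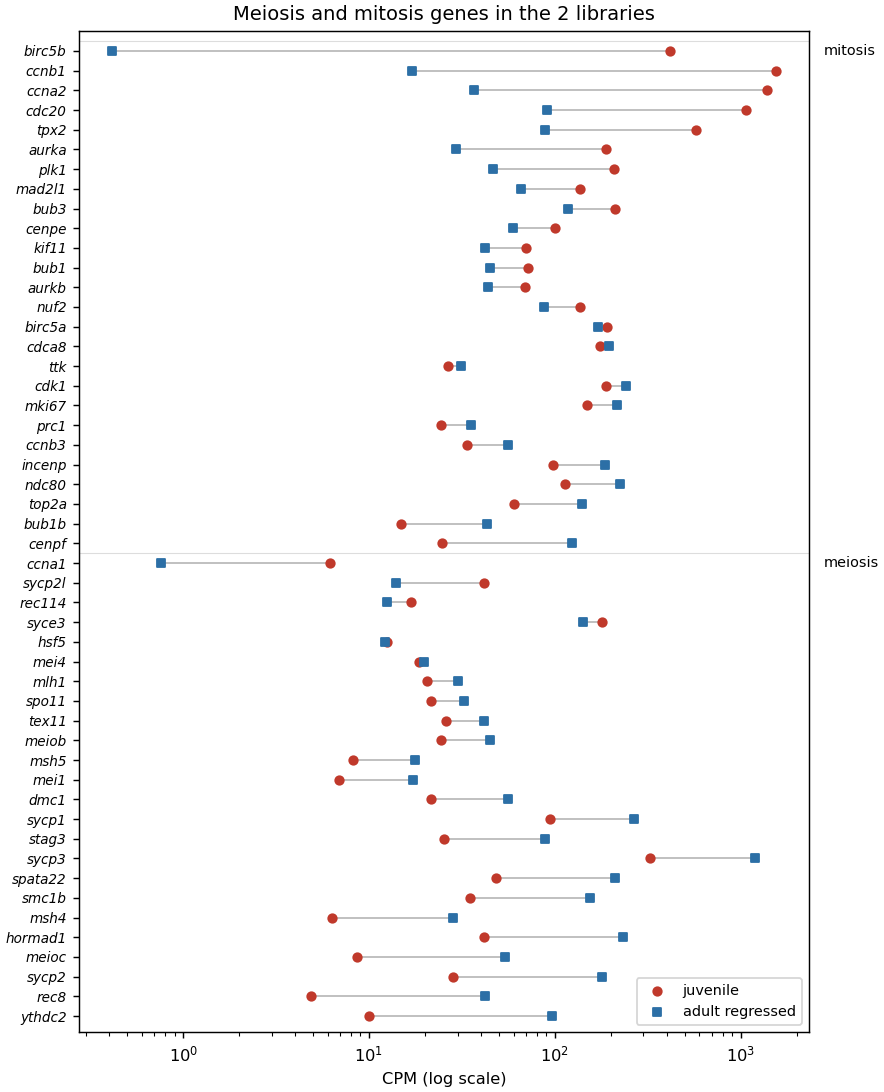
CPM on a log scale of each meiosis and mitosis gene in the juvenile (circles) and adult regressed (squares) library, with a line joining the 2 values of a gene. Most meiosis genes have the square to the right, and birc5b, ccnb1, ccna2 and cdc20 have the circle far to the right among mitosis genes.

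General germ cell genes were present in both libraries. The germ cell and piRNA list, genes that guard the germline genome through small RNAs, summed to 2538 and 3127 CPM, and of 18 members 10 lay within 2-fold, 6 were at least 2-fold higher in the adult regressed and 2 in the juvenile library, beside 37.0% and 21.4% of all genes. ddx4, the vasa helicase that marks germ cells, was at 397 and 627 CPM, and was seen in 32.9% and 45.8% of thinned barcodes, where the leukocyte-gene barcodes had 12.8% and 21.4%. piwil1, a piRNA-binding protein, was at 253 and 442 CPM, and dazl, a germ cell RNA-binding protein, at 90.6 and 215 CPM, 2.37-fold (2.27 to 2.47) higher in the adult regressed library. Members of the pathway split in direction. gtsf1, a cofactor of PIWI proteins, was higher in the juvenile library at 966 against 187 CPM, and the tudor gene tdrd6b at 10.7 against 1.01 CPM. henmt1, which methylates piRNA ends, was higher in the adult regressed library at 350.5 against 69.8 CPM, and tdrd7b at 33.7 against 1.93 CPM.

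Early germ cell genes had a higher sum in the juvenile library, 430.2 against 94.1 CPM. Of 14 genes of undifferentiated spermatogonia found and 10 compared, 8 were at least 2-fold higher there and 1 in the adult regressed library, beside 21.4% and 37.0% of all genes. The 8 were 5 as a mean over barcodes and also without the deep barcodes. pou5f3, the fish relative of the pluripotency factor Oct4, was at 199 and 0.676 CPM, 294-fold (255 to 341) apart. It is also a maternal RNA in zebrafish, and it was seen in 24.3% of thinned juvenile barcodes. Of the list's juvenile sum, 46.2% came from pou5f3. Which cells held the RNA of this list was not tested. sall4, a zinc finger factor of stem cells, was at 30.2 and 0.642 CPM, and nanos3, of primordial germ cells, at 15.2 and 0.509 CPM. nanos2, a marker of spermatogonial stem cells, was at 8.46 and 0.331 CPM, and its share of thinned juvenile barcodes was 0.374%. dnd1, which protects germ cell mRNA, was at 119.9 and 39.8 CPM. Not all members followed: etv5a, a target of the growth factor gdnf in mouse, was within 2-fold at 44.3 and 39.7 CPM, and lin28b, an RNA-binding protein of immature cells, was at 1.05 and 5.32 CPM.

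Lists of gonad somatic genes had low sums in both libraries, and the deepest juvenile barcodes carried much of the Sertoli list. No cell type was assigned, so a list name does not say which cells held the RNA. The Sertoli list summed to 268 and 20.4 CPM. Its largest member was cldn11a in the juvenile library, with 38.3% of the sum, and gsdf in the adult regressed library, with 41.1%. Of 12 members found and 7 compared, 6 were at least 2-fold higher in the juvenile library, beside 21.4% of all genes. The deepest 5% of juvenile barcodes held 63.8% of these UMIs, against 31.4% of all UMIs. Without the barcodes above the 95th percentile in each library the ratio of the sums went from 13.1 to 6.66, and as a mean over barcodes it was 4.87. inha, the inhibin subunit, held its difference at 66.8 and 0.625 CPM, with a ratio of 106.9 that was 106.0 without the deep barcodes. wt1, a transcription factor of Sertoli cells, was at 37.0 and 1.43 CPM. gsdf, a growth factor of fish Sertoli cells, was at 50.0 and 8.38 CPM, with 75.4% of its juvenile UMIs in the deepest 5% and a ratio of 1.23 as a mean over barcodes. amh, which regresses the Müllerian duct in mammals, was below the minimum for comparison at 1.81 and 0.140 CPM. Its ratio of 13.0-fold (8.29 to 20.3) was 1.74 without the deep barcodes. The share of gsdf in thinned juvenile barcodes was 1.34%, and 1 of the 39 leukocyte-gene barcodes held it. A single barcode cannot set a background level, and the part of free RNA in the gsdf share was not tested.

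Genes that set testis or ovary fate were low in both libraries. dmrt1, the testis factor of vertebrates, was at 7.77 and 1.83 CPM in the sums, but 83.4% of its juvenile UMIs lay in the deepest 5% of barcodes. Without the deep barcodes its ratio was 0.980, so no direction is given for it. foxl2l, a factor of female germ cells in medaka, was at 40.4 and 6.15 CPM, 6.58-fold (6.08 to 7.11) apart. It was put in the ovarian somatic list and made up 75.7% of that list's juvenile sum. Among the genes of this list, 8 were found and 4 compared. At least 2-fold higher in the juvenile library were 3, beside 21.4% of all genes. foxl2, of granulosa cells, was at 2.62 and 0.768 CPM, and hsd17b1, which makes estradiol, at 6.28 and 0.0478 CPM. cyp19a1a, the ovarian aromatase, was near the limit at 26 juvenile and 14 adult regressed UMIs. The list summed to 53.4 CPM in the juvenile and 9.99 CPM in the adult regressed library, foxl2l included. The deepest 5% of juvenile barcodes held 49.7% of this list's juvenile UMIs, against 31.4% of all UMIs.

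Steroid synthesis genes were low in both, summing to 62.4 and 56.1 CPM, and the ratio of 1.11 turned to 0.962 as a mean over barcodes and 0.951 without the deep barcodes. A single member, fdx1, made up 68.5% of the juvenile and 85.6% of the adult regressed sum, so this ratio mainly follows fdx1. Of 10 found and 6 compared, 4 were at least 2-fold higher in the juvenile and 1 in the adult regressed library, beside 21.4% and 37.0% of all genes. The 4 were 2 without the deep barcodes. insl3, a hormone of Leydig cells, had 224 juvenile and 6 adult regressed UMIs, with 86.2% of the former in the deepest 5% of barcodes. cyp17a2, a steroid hydroxylase, was higher in the adult regressed library at 6.52 against 1.69 CPM. Contractile genes of peritubular and smooth muscle cells summed to 15.6 and 29.0 CPM, with the smooth muscle actin acta2 at 4.11 and 14.2 CPM and its partner tagln at 2.50 and 6.06 CPM. Of 7 members found and 5 compared, 2 were 2-fold higher in the adult regressed library, near the 37.0% of all genes. Endothelial genes summed to 12.3 and 18.8 CPM. Of 9 found and 5 compared, 1 was 2-fold higher in the adult regressed library, beside 37.0% of all genes. That member was plvapa, named for plasmalemma vesicles of endothelium, at 1.33 and 6.05 CPM.

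Matrix, macrophage and erythroid genes were higher in the juvenile sum. Of 22 collagen and matrix genes found and 19 compared, 17 were at least 2-fold higher there, beside 21.4% of all genes. Their sums were 319 and 39.0 CPM, 8.18-fold apart or 4.57-fold as a mean over barcodes. ecm1a, an extracellular matrix protein, was at 84.7 and 0.0580 CPM, col1a1b, a type I collagen chain, at 44.3 and 0.311 CPM, and dcn, the proteoglycan decorin, at 10.7 and 0.0375 CPM. Macrophage genes summed to 932 and 76.3 CPM. Of 14 found and 12 compared, 10 were 2-fold higher in the juvenile library, beside 21.4% of all genes. The deepest 5% of juvenile barcodes held 49.6% of the macrophage gene UMIs, and the ratio of sums was 12.2, or 4.33 as a mean over barcodes. cd74b, an invariant chain of antigen presentation, was at 409.5 and 26.4 CPM, and the complement gene c1qb at 42.9 and 0.0785 CPM. Lymphocyte genes summed to 59.1 and 38.7 CPM, a ratio of 1.53 that turned to 0.973 as a mean over barcodes, with ptprc, the leukocyte antigen CD45, at 15.1 and 1.87 CPM and cd8b, of cytotoxic T cells, at 0.685 and 3.37 CPM. Of 15 lymphocyte genes found and 8 compared, 4 were at least 2-fold higher in the juvenile and 1 in the adult regressed library. Among all genes 21.4% and 37.0% were. Erythroid genes were also higher, and of 8 found all 6 compared were past 2-fold, beside 21.4% of all genes. The 6 included alas2, which starts heme synthesis in red cells, at 9.18 and 0.0512 CPM. Another was tfr1b, a transferrin receptor, at 108 and 18.4 CPM, which made up most of the list's 138 and 20.7 CPM. The part of these cells in the other differences was not tested.

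Genes of niche signals, among them Notch ligands and receptors, had a higher juvenile sum, 114 against 32.0 CPM. Of 20 niche signals found and 14 compared, 9 were at least 2-fold higher in the juvenile and 2 in the adult regressed library, beside 21.4% and 37.0% of all genes. The 2 were 4 as a mean over barcodes and without the deep barcodes. jag1, a Notch ligand, was at 44.2 and 2.80 CPM, and gdnf, the growth factor that maintains spermatogonial stem cells in mouse, was at 0.403 and 5.12 CPM, higher in the adult regressed library by 12.7-fold (6.89 to 26.6) on 10 juvenile UMIs. Hormone receptors summed to 92.6 and 309 CPM, and of 19 found and 12 compared 2 were 2-fold higher in the juvenile and 4 in the adult regressed library, near the shares of all genes. The 4 were 7 as a mean over barcodes. The ratio of these sums, 0.300, was 0.191 without the deep barcodes and 0.180 as a mean over barcodes. igf1r, the receptor for insulin-like growth factor, led these at 30.7 and 207 CPM, higher in the adult regressed library by 6.74-fold (6.28 to 7.25). It was seen in 1.80% of thinned juvenile and 19.6% of thinned adult regressed barcodes, and 1 of the 39 juvenile leukocyte-gene barcodes held it. The insulin receptor gene insrb followed at 5.84 and 35.4 CPM, and the estrogen receptor gene esr2b went the other way at 9.63 and 1.27 CPM.

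Retinoic acid genes, which time meiotic entry in mammals, had members on both sides. Those higher in the juvenile library included the retinol importer stra6 at 14.4 and 0.741 CPM, the binding protein crabp2a at 13.2 and 0.167 CPM, and the enzyme aldh1a3 at 13.5 and 2.06 CPM. The receptors rara and rxrba were higher in the adult regressed library, with rara at 4.63 and 13.9 CPM and rxrba at 8.18 and 35.6 CPM. Of 18 found and 13 compared, 5 passed 2-fold toward the juvenile and 3 toward the adult regressed library, beside 21.4% and 37.0% of all genes. The 5 were 3 as a mean over barcodes and without the deep barcodes, and 3 of 6 compared receptors lay within 2-fold. The sums of 118 and 93.6 CPM had a ratio of 1.26 that turned to 0.848 as a mean over barcodes.

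The adult regressed library was led by other genes. Genes of cytosolic ribosomal proteins, a list written after the values had been seen, took 19.8% of juvenile and 30.6% of adult regressed UMIs, and 15 of 81 were at least 2-fold higher in the adult regressed library against 3 in the juvenile. The first count is 18.5% of the list, below the 37.0% of all genes, and it was 28 as a mean over barcodes and 9 under median-of-ratios scaling. The median log2 ratio of the list, -0.58, was close to the -0.51 of all genes. rps27.1, one of them, was its most counted feature at 9725 CPM, against 2857 CPM. In the juvenile library, 40.3% of ribosomal protein UMIs lay in the deepest 5% of barcodes. The ribosomal list was matched by symbol and also held rps19bp1, which is not a ribosomal protein. hmgb1, a chromatin protein that bends DNA, was at 250.0 and 3373 CPM, higher in the adult regressed library by 13.5-fold (95% interval 13.2 to 13.8), and was seen in 18.8% and 95% of thinned barcodes. In the juvenile leukocyte-gene barcodes the share was 28.2%. The largest ratio among named features was that of acta1a, a muscle actin, at 2.82 and 236 CPM, or 83.7-fold (66.2 to 107). smad9, which carries signals of bone morphogenetic proteins, was at 7.05 and 205 CPM and was lower in the adult differentiating library at 24.8 CPM. cdkn1a, the cell cycle inhibitor p21, was at 4.35 and 90.4 CPM, with 4.43 CPM in the adult differentiating library.

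Stress and early response genes differed by list. Of 21 immediate early genes compared, 10 were at least 2-fold higher in the adult regressed and 5 in the juvenile library, beside 37.0% and 21.4% of all genes, with sums of 2499, 3883 and, in the adult differentiating library, 626 CPM. As a mean over barcodes the counts were 16 and 2. egr2, a zinc finger factor induced within minutes of a stimulus, was at 2.01 and 36.0 CPM, junbb, a subunit of the AP-1 factor, at 145 and 368 CPM, and gadd45b, a stress response gene, at 656 and 1356 CPM. Heat shock genes were close in sum, 3507 and 3481 CPM, of which hsp90ab1 made up 64.7% and 73.0%. Of 16 compared, 6 (37.5%) were at least 2-fold higher in the juvenile and 4 (25.0%) in the adult regressed library. Among all genes 21.4% and 37.0% were. The list median log2 ratio was 0.35 beside -0.51 for all genes. hsp90aa1.1, an inducible chaperone, was at 1.77 and 18.8 CPM, while hspd1, the chaperonin of mitochondria, was at 200.4 and 59.7 CPM. Cell death and clearance genes summed to 929 and 658 CPM, with 4 and 6 of 20 past 2-fold toward the juvenile and adult regressed library, near the shares of all genes, among them the lysosomal protease ctsl at 142 and 26.6 CPM and apaf1, the scaffold that activates caspases, at 3.06 and 15.2 CPM.

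Glycolysis genes stood close to the background. Of 27 found and 21 compared, 5 were at least 2-fold higher in the juvenile and 8 in the adult regressed library, 23.8% and 38.1%, where all genes had 21.4% and 37.0%. Besides gapdh, the enolase eno3 at 169 and 6.95 CPM was higher in the juvenile library. The enolase eno1 at 63.3 and 135 CPM and the triosephosphate isomerase tpi1 at 26.5 and 76.1 CPM were higher in the adult regressed library. The list summed to 2071 and 1043 CPM.

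**Figure D5:**
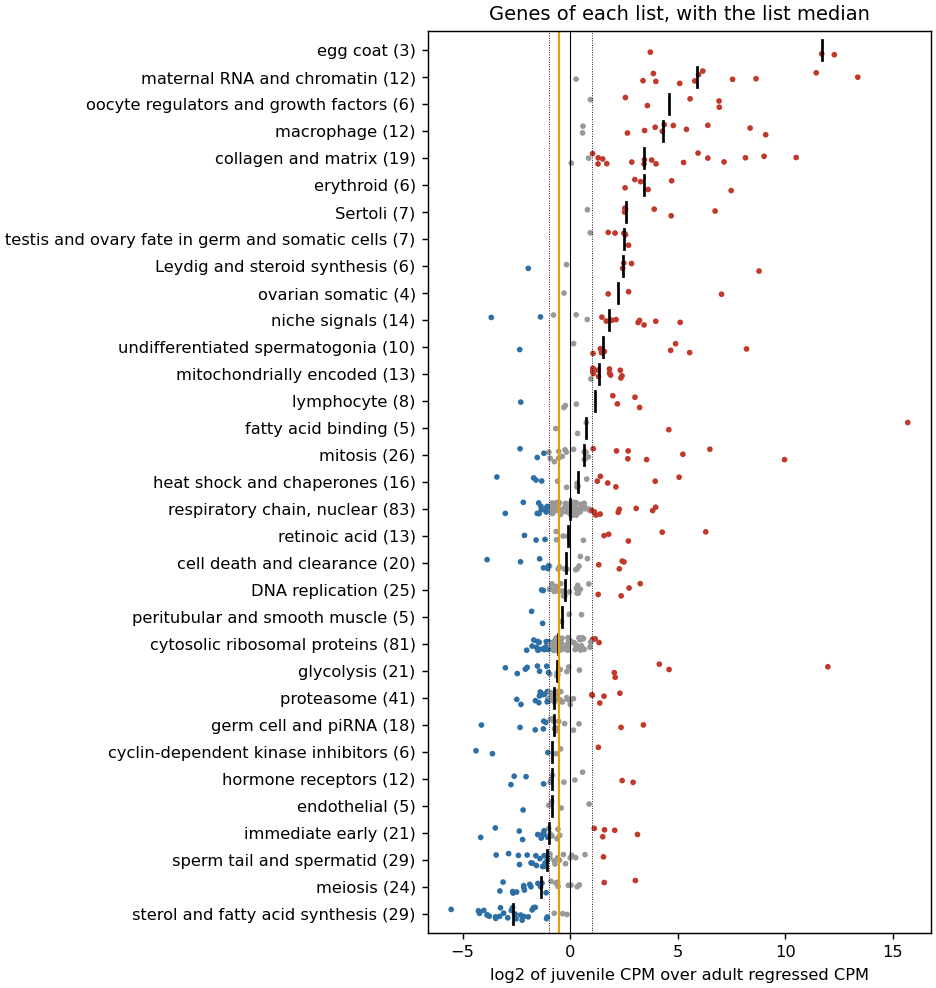
Log2 ratio of juvenile over adult regressed CPM (x axis) of every compared gene in each list (rows, with the number compared), with black bars at list medians, dotted lines at 2-fold and an orange line at the median of all genes, -0.51. Red points are at least 2-fold higher in the juvenile and blue points in the adult regressed library. The egg coat list has the highest median, 11.70, and the sterol and fatty acid synthesis list the lowest, -2.68.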

How the data were processed

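Droplet single-cell RNA libraries of testis were used as the authors deposited them, as tables of whole-number UMI counts per gene and barcode, with 1 library per group. The deposited counts carry Cell Ranger 5.0.0 in the matrix header, per the file headers, while Cell Ranger 3.1.0 and STAR are named per the submitters' processing notes, and the genome build and annotation are not given in the sources used here. No doublets were removed here, and no cell type was assigned to barcodes.

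Barcodes with at least 500 UMIs and 300 genes were kept, which removed 3 of 17828 adult regressed barcodes. UMIs were summed per gene and scaled to CPM. Genes with a mean of at least 1 CPM were compared, and ratios carry exact conditional binomial 95% intervals. Shares of barcodes were taken after thinning to 1000 UMIs, which left out 194 juvenile and 662 adult regressed barcodes. With 1 library per group no p-value was computed, and intervals cover counting error only.

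Named genes were all measured members of 25 gene lists, the 15 features with the highest and lowest ratios (mean of at least 10 CPM, 100 UMIs in all), the 15 largest CPM differences each way and the 10 most abundant features of each library. The members and lists were chosen with earlier results of these data known. A further 8 lists, and the same ranking repeated over the 20 features with a symbol each way, were added after seeing the values. A reference gene table (assembly L_crocea_2.0) gave a symbol to 6125 of 15972 LOC features. Alternatives were another scaling (median of ratios), the 50 most abundant genes left out, means over barcodes, stricter barcode filters, removal of the deepest barcodes, other minimum levels and a 4-fold limit. Calculations were tested on simulated counts and used Python 3.11.15, NumPy 2.4.6, SciPy 1.17.1, pandas 2.3.3 and Matplotlib 3.10.9.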

Additional observations from a re-analysis of the deposited data

How the results depend on the processing

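The count of genes at least 2-fold higher in the juvenile library was 1552 with a minimum of 10 CPM, 6726 with no minimum and 2102 at a 4-fold limit, and the count in the adult regressed direction was 3404 and 2396 at the first and last of these. With no minimum, a gene with very few juvenile UMIs can pass 2-fold because the juvenile sum is shallower. The 6726 therefore give no direction, and the opposite count at that setting is not given here. Median-of-ratios scaling moved the log2 ratio of every gene by 0.20 and gave 3937 and 5158 genes. Means over barcodes gave 3087 and 6659. Thinned to 2000 UMIs, the median barcode had 1089 juvenile and 1179 adult regressed genes. With at least 1000 UMIs and 500 genes the median depths were 3160.5 and 13120.0 UMIs. Among named genes at least 2-fold apart, ratios that turned below 1 were those of dmrt1 (0.873 as a mean over barcodes and 0.980 without the deepest barcodes), star (0.949 without the deepest barcodes) and pgr (0.989 as a mean over barcodes). Nearer to 1, dhh turned from 1.75 to 0.668, hsf5 from 1.03 to 0.909 and col6a3 from 1.04 to 0.752, the first 2 without the deepest barcodes and the last as a mean over barcodes. Of 190 named genes at least 2-fold apart, 17 were under 2-fold in at least 1 of 6 alternatives. No summed ratio of a list past 2-fold turned. The median log2 ratio of the lymphocyte list turned from 1.14 to -0.54 as a mean over barcodes. No paired analysis was possible because each group has 1 library, and for the same reason no replicate could be left out. The lower juvenile depth limits genes near the 1 CPM minimum, where counting intervals are wide.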

Other observations

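The gene lists described here were written after the values had been seen, so they describe these libraries and support no direction. Genes of sterol and fatty acid synthesis stood together. Past 2-fold toward the adult regressed library were 26 of 29 compared, beside 37.0% of all genes. Toward the juvenile library 0 were, beside 21.4% of all genes. The juvenile and adult regressed sums were 302 and 1812 CPM, with 2150.1 CPM in the adult differentiating library. hmgcs1, which makes the precursor of the mevalonate pathway, was at 14.0 and 259.8 CPM, sqle, the squalene epoxidase, at 2.34 and 44.9 CPM, elovl6, a fatty acid elongase, at 5.72 and 82.7 CPM, and the desaturase fads2 at 0.443 and 20.5 CPM. After thinning, 23.2% of juvenile and 80.4% of adult regressed barcodes held a UMI of the list, and 17.9% of the juvenile leukocyte-gene barcodes. ldlra, acaca and srebf1 were the members within 2-fold.

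RNA made inside mitochondria had a higher juvenile sum, while nuclear respiratory genes were close in sum. Of 13 mitochondrially encoded genes, 12 were at least 2-fold higher in the juvenile library, beside 21.4% of all genes, with sums of 5927 and 2006 CPM and 15636 CPM in the adult differentiating library. The 12 were 5 as a mean over barcodes and 8 without the deepest barcodes, and the ratio of the sums, 2.96, was 1.80 and 2.70. COX1, a subunit of cytochrome oxidase, was at 702 and 132 CPM. Nuclear genes of the respiratory chain summed to 27442 and 26116 CPM. Past 2-fold toward the juvenile and adult regressed library were 9 (10.8%) and 12 (14.5%) of 83, beside 21.4% and 37.0% of all genes. Proteasome genes summed to 5717 and 9120.5 CPM. Past 2-fold toward the juvenile and adult regressed library were 5 and 11 of 41, below the 21.4% and 37.0% of all genes. The 5 were 0 as a mean over barcodes and 1 without the deepest barcodes. This list was matched by symbol and also held psmc3ip, which is not a proteasome subunit. psmb10, a subunit of the immune proteasome, was at 17.0 and 3.43 CPM, a ratio of 4.97 that was 1.58 as a mean over barcodes, and the constitutive subunit gene psmb6 at 64.4 and 359.8 CPM.

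Of 6 compared inhibitors of cyclin-dependent kinases, 3 were at least 2-fold higher in the adult regressed and 1 in the juvenile library, beside 37.0% and 21.4% of all genes. The 1 was cdkn1b, at 47.2 CPM in the juvenile and 19.0 CPM in the adult regressed library. Of 8 fatty acid binding genes found and 5 compared, 2 were at least 2-fold higher in the juvenile library, beside 21.4% of all genes. Of 7 compared genes of testis and ovary fate, 6 were at least 2-fold higher in the juvenile sum, beside 21.4% of all genes. The deepest 5% of barcodes held 55.9% of the juvenile UMIs of this list. As a mean over barcodes, dmrt1 at 0.873 and gsdf at 1.23 were no longer past 2-fold.

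Some genes with very high juvenile ratios lay beside each other. The gene order of the reference table placed 13732 compared genes. Of the 229 placed genes at least 100-fold higher in the juvenile library, 47 (20.5%) stood next to another such gene, while such genes made up 1.67% of all placed genes. At 10-fold it was 160 of 922 (17.4%) beside 6.71%, and for the 295 genes at least 10-fold higher in the adult regressed library it was 6 (2.03%) beside 2.15%. A gene has a neighbour on either side, so the second share of each pair is not what a random order would give, and no chance value was computed. Reads shared between neighbouring copies were not measured. The build used for counting is not given in the sources used here, and only the order of genes was taken from the table.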
